A study of Macaca mulatta with 12 samples.

Results

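The genes described here encode Jumonji C (JmjC) histone demethylases, enzymes that remove methyl groups from lysines of histones. They were chosen by symbol. Of the 10 symbols KDM2A, KDM2B, KDM3A, KDM3B, KDM4A, KDM4B, KDM4C, KDM5B, KDM6B and KDM7A, 9 had a row among the 16745 genes of the table. KDM4C was not analysed here. All 9 passed the filter on low values, which left 12084 genes to test. The symbols were chosen with earlier results of these data known, so the share of them that passed is not that of a blind choice. The RNA was from rhesus macaque (Macaca mulatta) cells. Their label is cardiomyocyte, derived from induced pluripotent stem cells, with no genetic change named, and all were grown in RPMI with B27 and insulin. One culture format was a monolayer and the other a tissue grown in 3 dimensions, called EHT in the labels (engineered heart tissue). Monolayer hypoxia and EHT hypoxia cultures spent 24 hours in an anaerobic pouch, and the labels then give 24 hours following a change of medium, without saying when RNA was taken. The treatment text is the same for all samples, so for monolayer normoxia and EHT normoxia the labels give normoxia and nothing on how it was kept. Each of the 4 groups held 3 libraries. The labels do not say whether these were separate differentiations, so p-values measure the spread between these samples, which may be technical. The labels do not say whether normoxia cultures had a change of medium, so its part in the hypoxia comparisons cannot be told apart from that of oxygen.

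JmjC demethylases use iron, molecular oxygen and 2-oxoglutarate to oxidise a methyl group, which then leaves as formaldehyde. They belong to the same superfamily as the prolyl hydroxylases that mark the hypoxia-inducible factor (HIF) for destruction, so oxygen is their substrate, and in human cells several of their genes, KDM3A and KDM4B among them, are also known targets of HIF. By substrate the 9 genes cover H3K9 methylation (KDM3A and KDM3B on its lower states, KDM4A and KDM4B on its higher ones, KDM7A), H3K36 methylation (KDM2A, KDM2B, KDM4A, KDM4B), H3K4 methylation (KDM5B) and H3K27 methylation (KDM6B, KDM7A). What was measured is their RNA, not the enzymes' activity or any histone mark.

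Inverting the authors' transformation returned whole reads, 4154346 to 11298841 per library, and the 9 genes had 33 to 7912 reads each. Library medians of the deposited log2 values ran from 6.98 to 8.75. Values below are therefore centred, meaning that each library's median over the genes tested was subtracted and the mean of the 12 medians added back. In both EHT groups the library numbered 3 stood apart from the other two. The chi-square per degree of freedom between libraries was 4.89 for EHT normoxia replicates 1 and 2 but 37.3 and 55.05 against replicate 3. In EHT hypoxia it was 12.03 for replicates 1 and 2 but 46.6 and 38.1 against replicate 3. Monolayer normoxia libraries differed as widely, at 47.79 and 69.74 for replicate 1 against replicates 2 and 3. Replicates 2 and 3 of that group also differed by more than any monolayer hypoxia pair, which ran from 4.88 to 9.18. The 9 cardiomyocyte markers together took 0.0458 to 0.333% of reads in monolayer normoxia, 0.515 to 0.571% in monolayer hypoxia, 0.000907 to 0.0156% in EHT normoxia and 0.00195 to 0.0729% in EHT hypoxia. None of these markers was at 0 over a group. The 7 fibroblast markers took 3.26 to 6.86% across all libraries, more in every library than the cardiomyocyte markers. The 4 epithelial markers took 0.0852 to 0.471% in monolayer normoxia, 0.002425 to 0.00286% in monolayer hypoxia, 0.000272 to 0.00053% in EHT normoxia and 0.000996 to 0.00717% in EHT hypoxia. In bulk RNA fewer cells of a type and less RNA per cell cannot be told apart.

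The comparisons of hypoxia with normoxia asked how expression differed after oxygen depletion in each culture. Of the 9 JmjC demethylase genes 5 were higher and 1 was lower after hypoxia in monolayer, and 7 were higher and 0 lower in EHT (limma, adjusted p under 0.05 over all genes tested). Scaling by library totals, which gives shares of reads, called 4 higher and 2 lower in monolayer and 5 higher and 0 lower in EHT. After centring, higher in both cultures were KDM3A, KDM7A, KDM4B, KDM5B and KDM2A. KDM6B and KDM2B passed in EHT, KDM4A was lower in monolayer, and KDM3B passed in neither. KDM3A and KDM7A alone passed as higher in both cultures under each of the 5 scalings tried. Of all genes tested, 46.5% passed in monolayer (27.8% higher and 18.6% lower) and 35.5% in EHT (19.5% higher and 16% lower). Higher in both cultures were 12% of all genes, beside 5 of the 9, and lower in both were 6.20%, beside 0 of the 9. The median difference over the 9 genes was 0.72 in monolayer and 0.86 in EHT, on the log2 scale, against 0.07 and 0.03 over all genes tested.

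**Figure D1:**
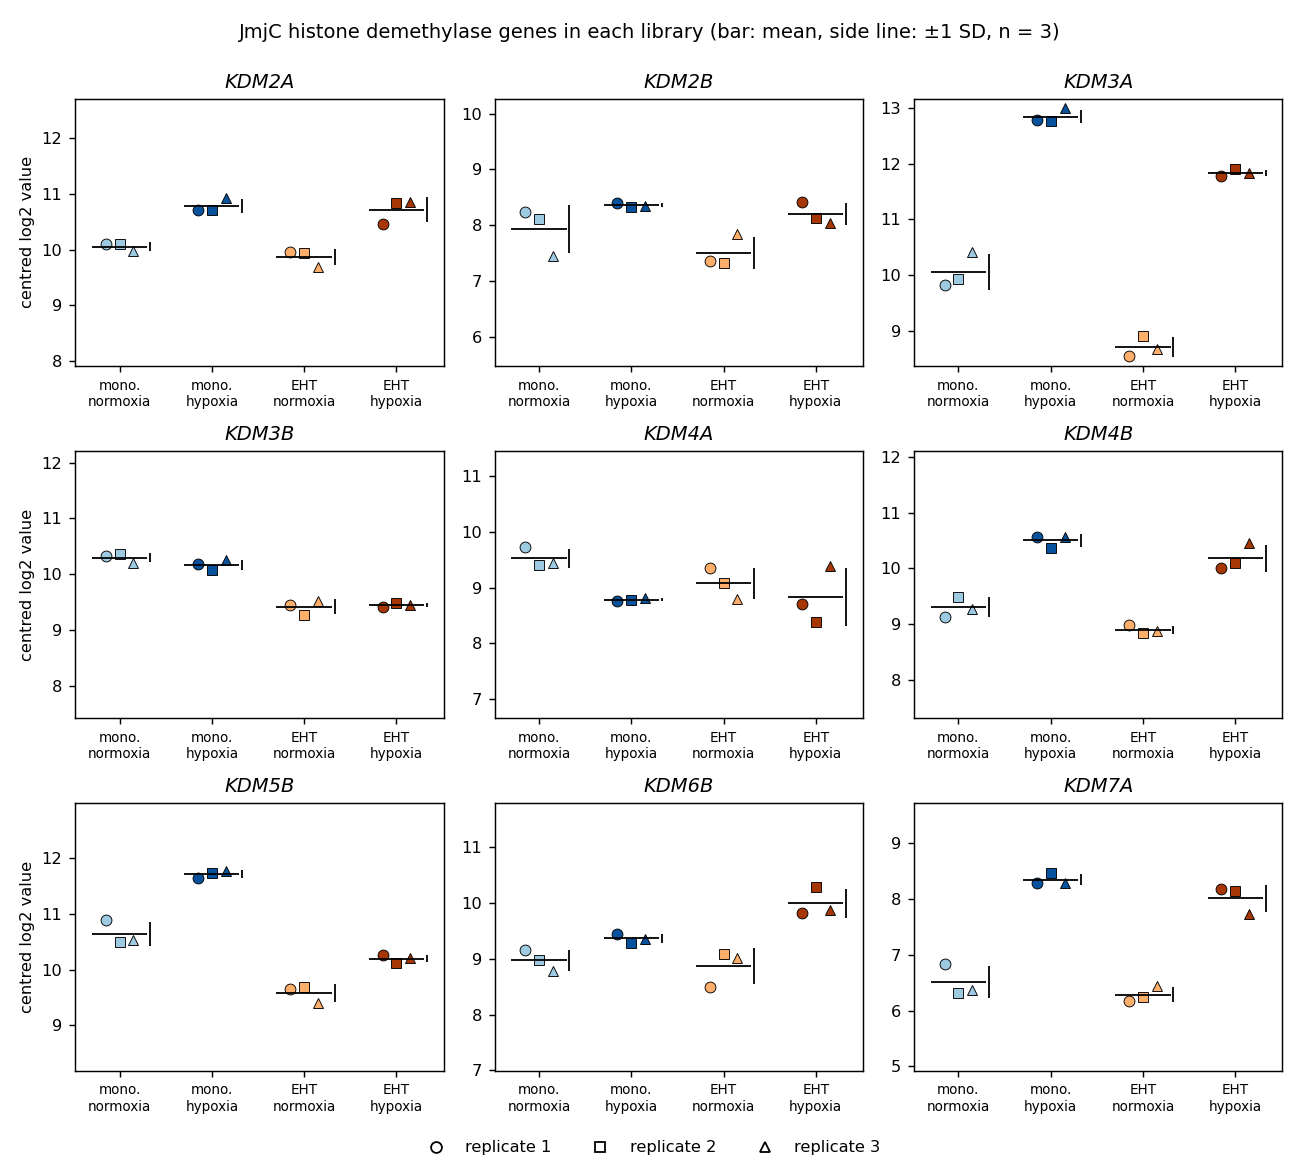
Centred log2 value (y axis, every panel spanning the same range) of each of the 9 genes in the 12 libraries, by group (x axis), with a marker for each replicate, a bar for the group mean and a side line for 1 SD on either side of it. KDM3A moved furthest, from a mean of 10.06 to 12.85 in monolayer and from 8.71 to 11.84 in EHT, while the KDM3B groups of each culture overlap.

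KDM3A, which removes lower states of H3K9 methylation, had the largest hypoxia difference of the 9 genes in both cultures. Its centred log2 values were 9.82, 9.93 and 10.42 in monolayer normoxia and 12.78, 12.77 and 12.99 in monolayer hypoxia. In EHT they were 8.55, 8.91 and 8.69 in normoxia and 11.79, 11.90 and 11.84 in hypoxia. Every hypoxia library lay at least 2.35 log2 units above every normoxia library in monolayer, and at least 2.88 above in EHT. The difference was 2.79 ± 0.16 in monolayer (SE, n = 3 per group, limma adjusted p = 1.64e-07), a 6.91-fold rise. In EHT it was 3.13 ± 0.16 (SE, n = 3 per group, limma adjusted p = 9.5e-08), an 8.74-fold rise. Among all genes tested the size of that difference ranked 203 in monolayer and 60 in EHT. As a share of reads, in RPM (reads in every 1000000 recovered), KDM3A went from 200 ± 40.3 to 827 ± 78.2 RPM in monolayer and from 58.6 ± 8.13 to 439 ± 22.9 RPM in EHT (SD, n = 3, two-sided exact permutation p = 0.1 for each, which is the floor with 3 libraries a group).

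KDM3B, the close relative of KDM3A with the same substrate, did not pass in either culture on centred values. It read 10.33, 10.35 and 10.20 in monolayer normoxia and 10.19, 10.07 and 10.25 in monolayer hypoxia. In EHT it read 9.46, 9.27 and 9.52 in normoxia and 9.41, 9.49 and 9.45 in hypoxia. The groups overlapped in both cultures. The difference was -0.13 in monolayer (95% interval from limma -0.37 to 0.12, adjusted p = 0.385) and 0.03 in EHT (-0.21 to 0.28, adjusted p = 0.845). Scaling by library totals, which gives shares of reads, made it -0.87 in monolayer (adjusted p = 0.000108). Quantile normalization made it -0.66 there (adjusted p = 0.000896). KDM3B took 234 ± 20.6 RPM in monolayer normoxia, more than the 200 ± 40.3 of KDM3A, and 128 ± 11.3 in monolayer hypoxia, against 827 ± 78.2 for KDM3A. These shares are not corrected for transcript length, so the order of both genes within a group is not a comparison of transcript numbers.

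KDM7A, which acts on H3K9 and H3K27 methylation, followed KDM3A in size. Its centred values were 6.84, 6.32 and 6.38 in monolayer normoxia and 8.30, 8.47 and 8.28 in monolayer hypoxia. In EHT they were 6.18, 6.25 and 6.44 in normoxia and 8.18, 8.14 and 7.74 in hypoxia. No hypoxia library overlapped a normoxia library of its culture. The difference was 1.84 ± 0.19 in monolayer (SE, n = 3 per group, adjusted p = 9.93e-06) and 1.73 ± 0.19 in EHT (adjusted p = 2.95e-05), folds of 3.57 and 3.32. KDM7A was also the least covered of the 9 genes, with 33 to 82 reads per library in EHT normoxia and 101 to 210 in EHT hypoxia.

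The KDM4 genes, whose products remove the higher states of H3K9 methylation and also act on H3K36, went different ways. KDM4B read 9.13, 9.49 and 9.28 in monolayer normoxia and 10.57, 10.37 and 10.56 in monolayer hypoxia, and 8.98, 8.84 and 8.88 in EHT normoxia against 9.9997, 10.09 and 10.46 in EHT hypoxia. All hypoxia values were above all normoxia values of the same culture. KDM4B rose by 1.20 ± 0.14 in monolayer (SE, n = 3 per group, adjusted p = 2.99e-05) and by 1.28 ± 0.14 in EHT (adjusted p = 3.42e-05), which is 2.30-fold and 2.44-fold.

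KDM4A was the member that fell on centred values. It read 9.73, 9.41 and 9.44 in monolayer normoxia and 8.76, 8.79 and 8.81 in monolayer hypoxia, with no overlap. The difference was -0.74 ± 0.22 (SE, n = 3 per group, adjusted p = 0.0164), and it lost its call without monolayer normoxia replicate 1 (-0.64, adjusted p = 0.0627). In EHT it read 9.36, 9.08 and 8.79 in normoxia and 8.70, 8.38 and 9.40 in hypoxia. The high value in EHT hypoxia was that of replicate 3, the library that stood apart within that group. With all libraries the EHT difference was -0.25 ± 0.22 (adjusted p = 0.423). Without EHT hypoxia replicate 3 it was -0.53 (adjusted p = 0.0243), and without both EHT libraries numbered 3 it was -0.68 (adjusted p = 0.00541).

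KDM5B, which removes H3K4 methylation and is known as a repressor of differentiation genes, was higher after hypoxia in both cultures. It read 10.88, 10.50 and 10.52 in monolayer normoxia and 11.64, 11.74 and 11.77 in monolayer hypoxia. In EHT it read 9.65, 9.68 and 9.41 in normoxia and 10.26, 10.13 and 10.21 in hypoxia. Within each culture the groups were apart. The rise was 1.08 ± 0.13 in monolayer (SE, n = 3 per group, adjusted p = 3.18e-05) and 0.62 ± 0.13 in EHT (adjusted p = 0.00279). Scaling by library totals left a rise of 0.34 in monolayer (adjusted p = 0.0329). In EHT that scaling gave 0.36, which missed the threshold (adjusted p = 0.0566). On deposited values KDM5B missed it in monolayer (0.53, adjusted p = 0.444) and in EHT (0.77, adjusted p = 0.35).

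KDM6B, an eraser of H3K27 methylation that is induced in many cell types by inflammatory and stress signals, passed in EHT. Its EHT values were 8.49, 9.10 and 9.02 in normoxia and 9.83, 10.29 and 9.87 in hypoxia, without overlap. The rise was 1.13 ± 0.18 (SE, n = 3 per group, adjusted p = 0.000447), a fold of 2.18. On deposited values KDM6B missed the threshold in EHT (1.28, adjusted p = 0.0685). In monolayer it read 9.16, 8.97 and 8.78 in normoxia and 9.45, 9.29 and 9.35 in hypoxia. Those groups were apart by 0.13 log2 units, and the difference of 0.40 ± 0.18 missed the threshold (adjusted p = 0.0897).

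KDM2A and KDM2B bind unmethylated CpG islands and remove lower states of H3K36 methylation, and KDM2B brings a Polycomb complex, PRC1.1, to those islands. KDM2A read 10.10, 10.09 and 9.97 in monolayer normoxia and 10.70, 10.71 and 10.92 in monolayer hypoxia, and 9.95, 9.94 and 9.69 in EHT normoxia against 10.46, 10.83 and 10.86 in EHT hypoxia. Hypoxia values lay above normoxia values in both cultures, with differences of 0.72 ± 0.14 in monolayer (SE, n = 3 per group, adjusted p = 0.000851) and 0.86 ± 0.14 in EHT (adjusted p = 0.000423). As a share of reads KDM2A did not move in monolayer, at 197 ± 15.6 RPM in normoxia and 196 ± 18.5 in hypoxia (SD, n = 3, exact permutation p = 1, two-sided). In EHT its share went from 132 ± 4.30 to 201 ± 22.3 RPM. On deposited values KDM2A missed the threshold in monolayer (0.17, adjusted p = 0.828) and in EHT (1.01, adjusted p = 0.183). After quantile normalization it missed the threshold in monolayer (0.21, adjusted p = 0.214).

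KDM2B had the widest spread among monolayer normoxia libraries, with centred values of 8.23, 8.12 and 7.44 there and 8.39, 8.33 and 8.35 in monolayer hypoxia. The difference of 0.43 ± 0.21 missed the threshold (SE, n = 3 per group, adjusted p = 0.119). In EHT it read 7.36, 7.32 and 7.83 in normoxia and 8.42, 8.12 and 8.04 in hypoxia, a rise of 0.69 ± 0.21 (adjusted p = 0.0233). That call was lost when EHT normoxia replicate 1 or 2 or EHT hypoxia replicate 1 was left out (adjusted p = 0.0824, 0.0874 and 0.0835). It was also lost with median-of-ratios factors (0.69, adjusted p = 0.0618), on deposited values (0.84, adjusted p = 0.299) and as a share of reads (0.48, adjusted p = 0.212), where the groups overlapped.

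**Figure D2:**
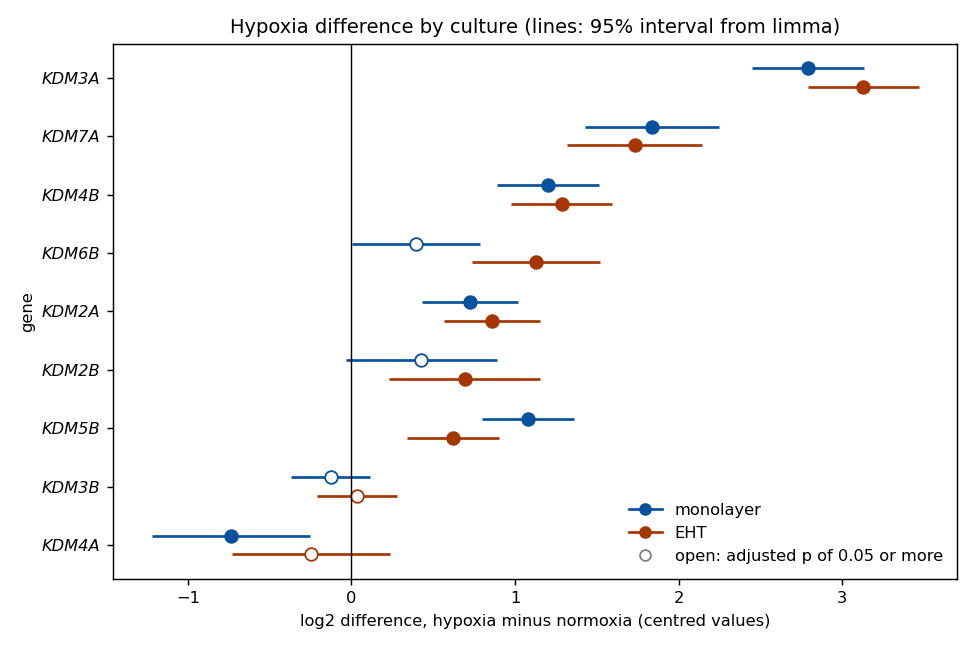
Log2 difference between hypoxia and normoxia (x axis, centred values) for each gene (y axis) in monolayer (blue) and EHT (brown), with 95% intervals from limma; open circles missed an adjusted p of 0.05. KDM3A lies at 2.79 and 3.13, KDM7A and KDM4B follow with intervals that overlap between cultures, and KDM4A lies below 0 in both.

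Groups were fully apart for 8 of the 9 genes in monolayer and for 7 of the 9 in EHT. Over all genes tested that held for 62.0% in monolayer and 43.5% in EHT. Markers of other cell types moved as well. In monolayer after hypoxia 4 of 9 cardiomyocyte markers and 3 of 4 smooth muscle markers were higher, and all 4 epithelial, 2 of 4 epicardial, 1 of 3 endothelial and 2 of 2 pluripotency markers tested were lower. Of the 7 fibroblast markers, 3 were higher and 3 lower there. In EHT after hypoxia 2 of 9 cardiomyocyte, 2 of 4 epithelial and 1 of 7 fibroblast markers were higher and 0 markers of any list were lower. Their part in the differences of the demethylase genes was not tested.

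The size of each hypoxia difference depended on how libraries were scaled, more so in monolayer. There, the median over all genes was 0.07 after centring, -0.48 on the deposited values and -0.73 as shares of reads, and in EHT it was 0.03, 0.18 and -0.18. With shares of reads 1218 genes were called higher and 6321 lower in monolayer, against 3362 and 2253 after centring. In EHT these counts were 1448 and 2835 against 2360 and 1932. KDM3A lay between 2.07 and 2.79 in monolayer and between 2.89 and 3.28 in EHT over the 5 scalings tried, and passed under each. KDM7A lay between 1.21 and 1.92 in monolayer and between 1.66 and 1.96 in EHT and also passed under each. KDM4B was positive under all 5, at 0.47 to 1.20 in monolayer and 1.05 to 1.44 in EHT, and missed the threshold in monolayer on the deposited values (adjusted p = 0.331). KDM4A was negative under all 5 in both cultures, at -1.51 to -0.74 in monolayer and -0.55 to -0.10 in EHT. KDM2B and KDM6B changed sign in monolayer, to -0.12 and -0.15 on the deposited values and -0.35 and -0.36 as shares of reads, and KDM2A stood at -0.01 as a share of reads.

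**Figure D3:**
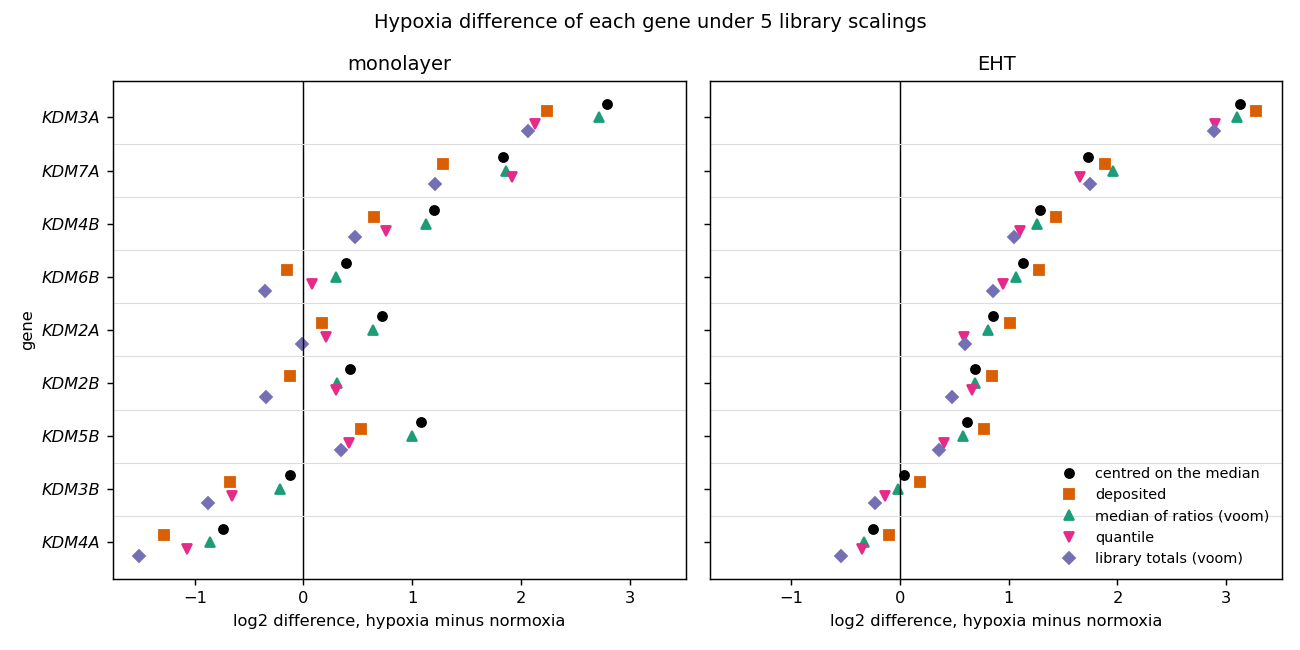
Log2 difference between hypoxia and normoxia (x axis) for each gene (y axis) in monolayer (left) and EHT (right) under 5 library scalings, each with its own marker. In monolayer KDM3A runs from 2.07 to 2.79 and stays right of 0, while KDM2A, KDM2B and KDM6B lie on either side of 0.

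Whether the hypoxia difference itself differed between cultures was tested as an interaction, EHT minus monolayer. Of the 9 genes 0 passed (limma), against 24.5% of all genes tested (10.3% higher in EHT and 14.1% lower). At an unadjusted p under 0.05 there were 2 of the 9, KDM6B and KDM5B, and voom on the recovered reads with median-of-ratios factors called 0. The count depended on scaling. Quantile normalization called 3 of the 9, all higher in EHT (KDM3A, KDM3B and KDM6B), beside 1516 higher and 1625 lower of all genes. Library totals called 5, all higher in EHT (KDM2A, KDM3A, KDM3B, KDM4A and KDM6B), and over all genes 2781 higher and 672 lower, against 1248 and 1708 after centring. KDM6B had the largest value, 0.73 ± 0.25 (SE, 95% interval 0.18 to 1.28, adjusted p = 0.0529), with a rise of 1.13 in EHT beside 0.40 in monolayer. It passed under 9 of 22 alternatives, among them leaving out monolayer normoxia replicate 3, EHT normoxia replicate 2, or EHT hypoxia replicate 1 or 3 (adjusted p = 0.0336 to 0.048). KDM5B went the other way at -0.46 ± 0.18 (95% interval -0.86 to -0.06, adjusted p = 0.0865) and passed under 3 of 22 alternatives. These were leaving out monolayer normoxia replicate 1 (-0.58, adjusted p = 0.0265) or both EHT libraries numbered 3 (-0.55, adjusted p = 0.0407), and array weights (-0.56, adjusted p = 0.0137). As a share of reads KDM5B was 0.02. KDM3A differed between cultures by 0.34 (95% interval -0.14 to 0.82), KDM4B by 0.08 (-0.35 to 0.52) and KDM7A by -0.11 (-0.69 to 0.47). KDM3A passed at 0.76 after quantile normalization (adjusted p = 0.0278) and at 0.82 as a share of reads (adjusted p = 0.0158), and KDM7A was 0.53 as a share of reads (adjusted p = 0.235). The intervals do not show that the cultures responded alike.

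The comparisons of EHT with monolayer asked how the culture formats differed at the same oxygen condition. They use the same 12 libraries as the hypoxia comparisons and are not independent of them. In normoxia 4 of the 9 genes were lower in EHT and 0 were higher, where 41.2% of all genes passed, 18.5% lower and 22.8% higher. In hypoxia 3 were lower and 1 was higher, where 38.1% of all genes passed, 19.7% lower and 18.4% higher. The culture groups were fully apart for 6 of the 9 genes in normoxia and 5 of the 9 in hypoxia, against 55.5% and 50.8% of all genes. KDM5B, KDM3A and KDM3B were lower in EHT at both oxygen conditions. KDM5B differed by -1.06 ± 0.13 in normoxia (SE, n = 3 per group, adjusted p = 5.14e-05) and by -1.52 ± 0.13 in hypoxia (adjusted p = 6.63e-06). KDM3A differed by -1.34 ± 0.16 (adjusted p = 3.6e-05) and -1.01 ± 0.16 (adjusted p = 0.000426). KDM3B differed by -0.88 ± 0.11 (adjusted p = 6.81e-05) and -0.72 ± 0.11 (adjusted p = 0.000417). On deposited values in hypoxia KDM5B passed, but KDM3A (-1.04, adjusted p = 0.15) and KDM3B (-0.75, adjusted p = 0.349) missed the threshold.

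KDM4B was lower in EHT normoxia by -0.40 ± 0.14 (SE, n = 3 per group, adjusted p = 0.0395), a call that 7 of the 12 single libraries decided: without monolayer normoxia replicate 2 or 3, monolayer hypoxia replicate 1 or 3, or any of the EHT normoxia libraries, its adjusted p was 0.0524 to 0.145. It was also lost with the replicate number as a block (adjusted p = 0.051), without a mean-variance trend (0.0682), without the filter (0.189) and on deposited values (0.0569). KDM6B was the member that was higher in EHT hypoxia than in monolayer hypoxia, by 0.63 ± 0.18 (adjusted p = 0.0154), and its values there, 9.83, 10.29 and 9.87, lay above the 9.45, 9.29 and 9.35 of monolayer hypoxia. It lost this call without monolayer hypoxia replicate 2 (adjusted p = 0.0552) or EHT hypoxia replicate 2 (adjusted p = 0.0645). On deposited values the difference was 0.59 and missed the threshold (adjusted p = 0.501). KDM2A, KDM2B, KDM4A and KDM7A passed at neither oxygen condition on centred values. In normoxia all of them passed as lower in EHT as shares of reads. KDM2A stood at -0.58 (adjusted p = 0.00248), KDM2B at -0.88 (0.0127), KDM4A at -0.86 (0.00235) and KDM7A at -0.76 (0.0296). Over all genes that scaling called 4543 lower and 1436 higher in normoxia. KDM4A passed there on deposited values (adjusted p = 0.0465), after quantile normalization (0.0164), with median-of-ratios factors (0.0328) and without EHT hypoxia replicate 3 (0.0294). KDM2A passed after quantile normalization (adjusted p = 0.0157), and KDM2B with array weights (0.00716), without both EHT libraries numbered 3 (0.0329) and without monolayer normoxia replicate 3 (0.0181). Cell type markers moved with culture too. In normoxia 8 of 9 cardiomyocyte, 4 of 4 epithelial, 3 of 4 epicardial and 2 of 2 pluripotency markers were lower in EHT. There 1 of 3 endothelial markers was higher and 2 were lower, and 1 of 4 smooth muscle markers was higher and 1 lower. In hypoxia 8 of 9 cardiomyocyte, 4 of 4 smooth muscle and 1 of 4 epithelial markers were lower in EHT. Endothelial markers there were higher for 1 of 3 and lower for 1, and 1 of 2 pluripotency markers was higher. Of 7 fibroblast markers 2 were higher and 1 lower in normoxia, and 3 were higher and 1 lower in hypoxia. The part of these markers in the differences of the demethylase genes was not tested.

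The order of the 4 groups was not the same for all genes. KDM3A rose from EHT normoxia (mean 8.71) through monolayer normoxia (10.06) and EHT hypoxia (11.84) to monolayer hypoxia (12.85), and no neighbours in this order overlapped. For KDM5B both monolayer groups stood at the top, at 11.71 in hypoxia and 10.64 in normoxia, above EHT hypoxia at 10.20 and EHT normoxia at 9.58. KDM6B was highest in EHT hypoxia at 9.996, then monolayer hypoxia at 9.37, with monolayer normoxia (8.97) and EHT normoxia (8.87) overlapping. For KDM4A monolayer normoxia was highest at 9.52, and EHT normoxia (9.07), EHT hypoxia (8.83) and monolayer hypoxia (8.79) followed, with overlap between EHT normoxia and EHT hypoxia and between EHT hypoxia and monolayer hypoxia.

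Over the 12 libraries, which share their groups, KDM3A ran closely with KDM4B (Pearson r = 0.97), KDM7A (0.94) and KDM2A (0.93), less so with KDM5B (0.79) and KDM6B (0.65), and against KDM4A (-0.49). These are descriptions, since 4 groups of libraries carry most of the variation. Among all genes tested the 5 whose centred values ran closest to KDM3A were DOT1L (0.99), a histone methyltransferase, MLLT3 (0.99), a partner of the DOT1L complex, the interferon-induced GTPase gene MX1 (0.99), the hexokinase gene HK2 (0.98) and GGA2 (0.98), which encodes a trafficking adaptor. For KDM6B they were the phosphodiesterase gene PDE2A (0.98), the transcription factor gene ASCL2 (0.95), FAM160A2 (0.94), the interleukin-1 receptor antagonist gene IL1RN (0.93) and VWA5A (0.93).

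The hypoxia response of known hypoxia-inducible genes sets the scale for these values. Of a list of 28 tested, which includes KDM3A, 27 were higher after hypoxia in monolayer and 28 in EHT, with medians of 2.79 and 3.54 and 0 lower. In monolayer KDM3A (2.79) and PLOD2 (2.80) were the middle genes of the list, so KDM3A helped set the median there. In EHT KDM3A (3.13) lay under the median. VEGFA, which encodes an angiogenic growth factor, rose by 2.96 in monolayer and 3.32 in EHT, the carbonic anhydrase gene CA9 by 1.73 and 6.68 (1.13 in monolayer as a share of reads, adjusted p = 0.0653), and the HIF prolyl hydroxylase gene EGLN3 by 2.24 and 5.06.

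JmjC genes beyond the 9 went both ways. Of 14 tested, 6 were higher and 4 lower in monolayer and 5 were higher and 3 lower in EHT, with medians of 0.06 and 0.17. As shares of reads these counts were 1 and 8 in monolayer and 5 and 4 in EHT. JMJD6, a lysyl hydroxylase of the nucleus, rose by 1.88 in monolayer and 1.14 in EHT. JARID2, a JmjC protein of Polycomb repressive complex 2 without demethylase activity, rose by 0.79 and 1.19, and was 0.04 in monolayer as a share of reads. JMJD4, which in human cells hydroxylates a translation termination factor, fell by 1.27 and 1.24. PHF2, of the same subfamily as KDM7A, fell by 0.89 and 0.47. PHF8, another relative of KDM7A, fell by 0.65 in monolayer and stood at 0.39 in EHT (adjusted p = 0.0623), and the cultures differed (interaction 1.05, adjusted p = 0.00453). KDM6A, which shares the substrate of KDM6B, was higher in EHT by 0.89 and stood at 0.28 in monolayer (adjusted p = 0.155).

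**Figure D4:**
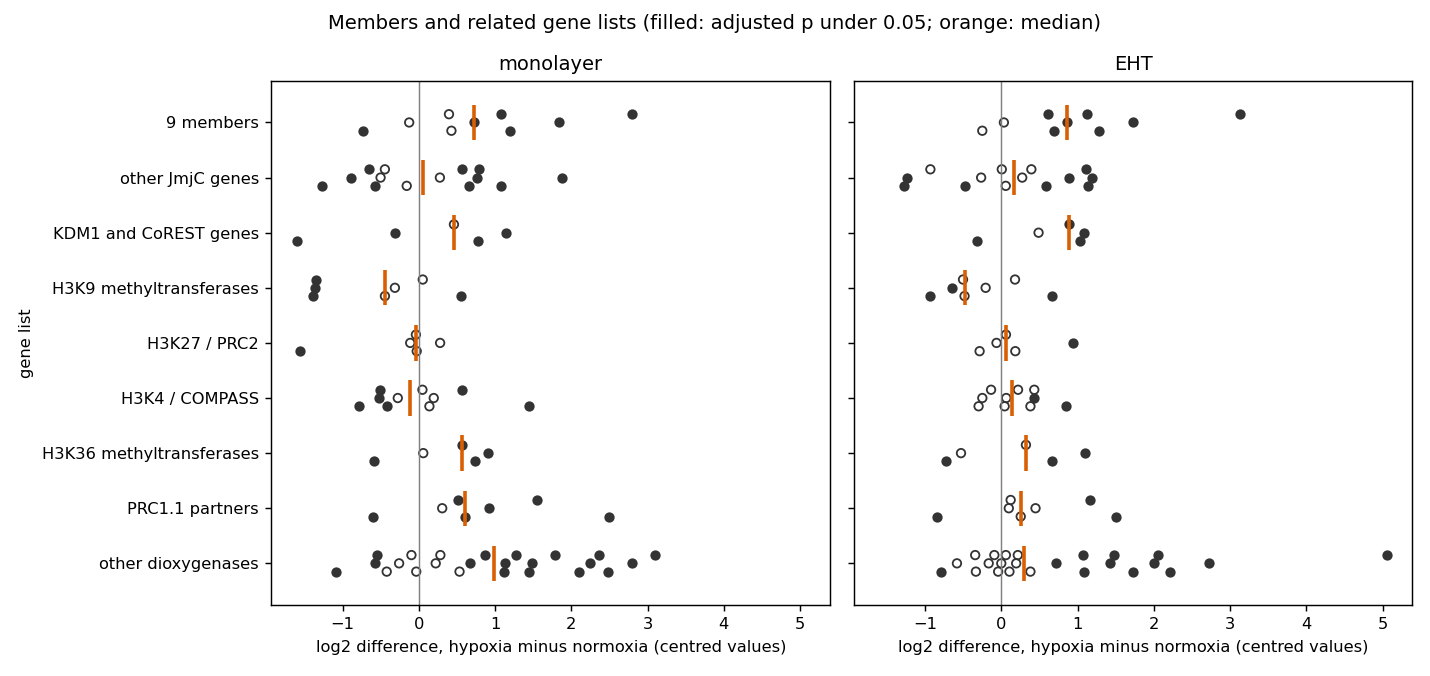
Log2 difference between hypoxia and normoxia (x axis, centred values) of each tested gene in the lists named on the y axis, in monolayer (left) and EHT (right), with filled points for an adjusted p under 0.05 and an orange bar for the list's median. The 9 demethylase genes have medians of 0.72 and 0.86, and the H3K9 methyltransferases of -0.44 and -0.48.

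Demethylases that use flavin in place of iron and 2-oxoglutarate, and their partners, made a list of 5, with 2 higher and 2 lower in monolayer and 3 higher and 1 lower in EHT. KDM1A, which acts on H3K4 methylation, fell by 0.32 in both cultures (adjusted p = 0.0391 in monolayer and 0.044 in EHT). KDM1B stood at 0.46 and 0.49 (adjusted p = 0.111 and 0.11). Of KDM1A's corepressor partners, RCOR1 rose by 0.77 and 1.03 and RCOR3 by 1.14 and 0.89, though as shares of reads RCOR1 was 0.04 (adjusted p = 0.817) and RCOR3 0.44 (adjusted p = 0.0683) in monolayer. RCOR2 fell by 1.60 in monolayer and rose by 1.08 in EHT (interaction 2.68, adjusted p = 8.14e-05).

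The methyltransferases that write the marks were tested as lists for each site. Of 7 H3K9 methyltransferases 1 was higher and 3 were lower in monolayer, and 1 was higher and 2 were lower in EHT, with medians of -0.44 and -0.48. EHMT1 fell by 1.34 and 0.65 and SUV39H2 by 1.37 and 0.94. PRDM2 fell by 1.39 in monolayer, where EHMT2 rose by 0.55 on centred values and stood at -0.19 as a share of reads. SETDB1 rose by 0.67 in EHT. Of 5 H3K27 methyltransferase and PRC2 genes, EZH2, the catalytic subunit of dividing cells, fell by 1.56 in monolayer and its relative EZH1 rose by 0.94 in EHT, and no other member passed in either culture. Of 10 H3K4 methyltransferase genes and partners 2 were higher and 4 lower in monolayer and 2 were higher and 0 lower in EHT, and KMT2A rose by 1.44 and 0.86. Of 5 genes listed for H3K36 (SETD2, NSD1, SMYD2, SETD3 and WHSC1L1) 3 were higher and 1 lower in monolayer and 2 and 1 in EHT. SETD3 passed in neither culture on centred values (adjusted p = 0.891 and 0.182). SMYD2 rose by 0.91 and 1.101, and NSD1 fell by 0.59 and 0.73. As shares of reads in monolayer the counts higher and lower were 0 and 6 for H3K9, 0 and 5 for H3K27, 1 and 8 for H3K4 and 0 and 2 for H3K36, KMT2A being the one gene that passed as higher, at 0.71.

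Partners of KDM2B in PRC1.1 were higher in 5 of 7 and lower in 1 in monolayer, and higher in 2 and lower in 1 in EHT, with medians of 0.61 and 0.26. RYBP, a core subunit, rose by 2.50 and 1.51. PCGF1, which defines the complex, rose by 0.92 and 1.16, and was 0.28 in monolayer as a share of reads (adjusted p = 0.328). BCOR, its scaffold, rose by 1.55 in monolayer and stood at 0.45 in EHT (adjusted p = 0.0607). RING1 fell by 0.60 in monolayer. YAF2 fell by 0.85 in EHT and rose by 0.61 in monolayer, where it was -0.12 as a share of reads (adjusted p = 0.576). Counted as shares of reads, 2 were higher and 1 was lower in each culture.

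Other dioxygenases of the superfamily, which also use oxygen and 2-oxoglutarate, were higher in 14 of 24 and lower in 3 in monolayer, and higher in 11 and lower in 1 in EHT, with medians of 0.99 and 0.30. As shares of reads 11 were higher and 9 lower in monolayer, and 10 were higher and 5 lower in EHT. EGLN1, the main HIF prolyl hydroxylase, rose by 2.48 and 2.73, close in size to KDM3A. PLOD2, a collagen lysyl hydroxylase, rose by 2.80 and 2.05, and ALKBH5, which removes a methyl mark from RNA, rose by 1.78 and 1.43. TET3, which oxidises methylated DNA, fell by 1.08 and HIF1AN, which hydroxylates an asparagine of HIF, fell by 0.58 in monolayer, and PHYH, a peroxisomal enzyme, fell by 0.79 in EHT.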

How the data were processed

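RNA from 12 libraries in 4 groups of 3 was sequenced on the Ion Proton, per the labels. Per the submitters' processing notes HISAT2, featureCounts and DESeq2 were used; for versions, genome build, annotation, strand and reads shared by paralogs, nothing is stated (not given in the sources used here). The deposited table holds variance-stabilised log2 values made by the authors, 1 column per library. All 9 members matched a symbol in the RefSeq-based reference list, and no positions are given.

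Inverting the transformation gave whole reads within 0.01 for 100% of values. A gene was tested if its mean exceeded the table's minimum, 3.00, by 1 or more on the log2 scale. Each library was centred on its median, because the deposited scaling left medians that differed. With limma 3.58.1 in R 4.3.3, the 12 libraries entered 1 linear model of group means, variances being moderated towards a trend in mean level. P-values of each of the 5 comparisons were adjusted by Benjamini-Hochberg over all genes tested, and 0.05 was the limit. Prior degrees of freedom came to 4.77 after centring. Without centring they were infinite, so that all genes shared 1 trended variance. Intervals are 95% limma intervals. RPM is recovered reads over the library total, times 1000000; reads are not independent molecules.

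Named were all members, up to 3 genes per list, direction and hypoxia comparison, HIF1A, EPAS1, EGLN3, VEGFA and CA9, and the 5 genes most correlated with KDM3A and with KDM6B; the text gives some of these, and where a list gene is named in a second culture its value there is given. KDM1B was named outside this rule, after its values were seen. Members and lists were chosen with earlier results of these data known. Alternatives were other scalings, filters, variance models, array weights, a replicate block, subsets of groups and leaving out libraries. Scaling by library totals was added after the data were seen. Figures were drawn with matplotlib 3.10.9.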

Additional observations from a re-analysis of the deposited data

How the results depend on the processing

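Each difference of a member was recomputed under 23 alternatives (22 for the interaction, which has no fit with fewer groups). Of these values, 924 kept direction and side of the threshold, 32 lost the call, 40 gained one and 30 changed sign. KDM3A and KDM7A kept direction and call in both hypoxia comparisons under all 23, and KDM4B in EHT. The causes of the changes were not tested.

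On deposited values without centring, where all genes shared 1 trended variance, 3 members were called in monolayer hypoxia, 3 in EHT hypoxia and 1 between cultures in hypoxia. Genes called were 2945 in monolayer (535 higher and 2410 lower), 1128 in EHT (858 and 270), 1249 in the interaction and 1553 between cultures in hypoxia. In monolayer KDM2B became -0.12 and KDM6B -0.15, and in the interaction KDM5B became 0.24 and KDM7A 0.59. With library totals, 5 members and 3453 genes were called in the interaction. Between cultures in normoxia 8 members were called, all lower, beside 5979 genes (1436 higher and 4543 lower). After centring 4984 genes were called there (2750 and 2234). With library totals KDM2A was -0.012, KDM2B -0.35 and KDM6B -0.36 in monolayer hypoxia and KDM3B -0.23 in EHT hypoxia. In the interaction KDM5B was 0.018 and KDM7A 0.53, and between cultures in hypoxia KDM2A was 0.036. With median-of-ratios factors KDM3B was -0.018 in EHT hypoxia, KDM7A 0.089 in the interaction and KDM4A -0.043 between cultures in hypoxia.

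In the interaction 3 members (and 3141 genes) were called after quantile normalization and 1 (and 2818 genes) with the stricter filter. With array weights 2 members were called (and 4753 genes), and without both EHT libraries numbered 3 also 2 (and 4264 genes). Quantile normalization put KDM3B at -0.14 in EHT hypoxia. Without a filter KDM4B was -0.028 in the interaction and KDM6B 0.017 between cultures in normoxia. Without both EHT libraries numbered 3, the interaction was -0.023 for KDM2A, -0.064 for KDM4B and 0.11 for KDM7A. Between cultures in hypoxia KDM4A was -0.25 without them and -0.21 with array weights.

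Leaving out 1 library at a time, members called ran from 5 to 6 in monolayer hypoxia and 6 to 8 in EHT hypoxia. They ran from 0 to 1 in the interaction and 3 to 5 between cultures at either oxygen condition. Genes called ran from 4472 to 6489 in monolayer hypoxia, 3287 to 5317 in EHT hypoxia and 2096 to 4076 in the interaction. Between cultures they ran from 3930 to 5902 in normoxia and 3401 to 4683 in hypoxia. Signs changed for KDM3B in EHT hypoxia (-0.040 to 0.088), for KDM4B (-0.053 to 0.18) and KDM7A (-0.27 to 0.032) in the interaction, for KDM6B between cultures in normoxia (-0.22 to 0.086), and in hypoxia for KDM2A (-0.13 to 0.067) and KDM4A (-0.25 to 0.26).

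No label says that a replicate number marks a shared source, so samples were not treated as paired. Deviations of same-numbered normoxia and hypoxia libraries correlated at 0.001, 0.052 and 0.132 in monolayer and at 0.036, 0.328 and 0.275 in EHT. Between cultures they correlated at -0.060, 0.228 and 0.143 in normoxia and at 0.048, 0.046 and 0.142 in hypoxia. The best match shared the number in 18 of 36 cases, 1 of them for a library numbered 1 and the others for libraries numbered 2 or 3. With the replicate number as a block 6 members were called in monolayer hypoxia, 7 in EHT hypoxia and 0 in the interaction. Genes called in these comparisons were 5574, 4223 and 2887. Between cultures 3 members and 4976 genes were called in normoxia, where KDM4B was lost, and 4 members and 4591 genes in hypoxia. Precision for the members was limited by 33 to 7912 reads a library and by 3 libraries a group.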

Other observations

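Of the 5 genes of HIF subunits tested, 1 was higher and 1 lower after hypoxia in monolayer, and 2 were higher and 1 lower in EHT. HIF1A, which encodes the oxygen-regulated alpha subunit, fell by 1.26 ± 0.20 in EHT after hypoxia (SE, n = 3 per group, limma adjusted p = 0.000507) and stood at -0.51 ± 0.20 in monolayer (adjusted p = 0.0591). In monolayer HIF1A passed as lower after quantile normalization (-1.10, adjusted p = 0.000362) and as a share of reads (-1.25, adjusted p = 6.44e-05). It also passed there with median-of-ratios factors (-0.60, adjusted p = 0.021) but not on deposited values (-1.06, adjusted p = 0.091). HIF1A missed the threshold in EHT on deposited values (-1.11, adjusted p = 0.133). EPAS1, the other main alpha subunit, fell by 1.30 ± 0.35 in monolayer (adjusted p = 0.00923) and stood at -0.79 ± 0.35 in EHT (adjusted p = 0.1). In EHT it passed as lower after quantile normalization (-0.97, adjusted p = 0.0459) and as a share of reads (-1.03, adjusted p = 0.0321). It missed the threshold there with median-of-ratios factors (adjusted p = 0.105) and on deposited values (adjusted p = 0.467). ARNT, the shared partner of HIF1A and EPAS1, rose by 0.97 in monolayer and 1.15 in EHT, and was 0.24 in monolayer as a share of reads (adjusted p = 0.154). HIF3A rose by 2.65 in EHT (adjusted p = 0.00758) and stood at -0.03 in monolayer, with an interaction of 2.68 (adjusted p = 0.0527), and it missed the threshold in EHT as a share of reads (adjusted p = 0.0546).

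Enzymes that make or use 2-oxoglutarate, succinate and fumarate, the cosubstrate and the inhibitors of JmjC demethylases, were higher in 5 of 15 and lower in 0 in monolayer, and higher in 2 and lower in 4 in EHT. As shares of reads these counts were 1 and 6 in monolayer and 1 and 5 in EHT. IDH3G, a subunit of the mitochondrial isocitrate dehydrogenase, rose by 1.34 in monolayer and 1.03 in EHT. In EHT the fumarase gene FH fell by 1.40. There IDH3A fell by 1.17, and the aspartate aminotransferase gene GOT2 fell by 1.89. In monolayer they stood at -0.17, -0.08 and -0.47, and each difference between cultures passed on centred values (interaction adjusted p = 0.00162, 0.00305 and 0.0124). As shares of reads all of them were lower in monolayer as well. FH stood at -0.92 (adjusted p = 0.000116), IDH3A at -0.86 (0.000334) and GOT2 at -1.21 (0.000309). Their difference between cultures on that scale is not given here. Metabolites were not measured.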
